A study of Mus musculus with 14 samples.

Results

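Interferon-gamma producers from a Th1 culture were compared with naive CD4+ T cells over all genes counted. The producers, called YFPpos here, were CD4+ T cells enriched from spleen and peripheral lymph nodes and kept for 4 days with antibodies to CD3 and CD28 bound to the plate (1 µg/ml), with IL-12 and IL-2, each at 10 ng/ml, and with anti-IL4 at 10 µg/ml. They were sorted for expression of a YFP reporter of interferon-gamma after culture with 1 µM SGC0649, the inactive control compound of the DOT1L inhibitor SGC0946. The naive cells were sorted on surface markers, CD44- among them, and were neither cultured nor treated. All cells came from reporter mice on the C57BL/6 background. The members were all libraries with these labels, 3 of YFPpos SGC0649 and 3 of naive cells, which is 6 of 14 libraries in the series. Both YFPneg SGC0649 libraries and the 3 YFPpos SGC0946 libraries are described only beside YFPpos SGC0649. All 14 libraries were fitted together, so the filter, scaling and spread behind each main p-value draw on all of them. A Th1 culture without any compound was not analysed here, and the cultured cells were enriched CD4+ cells, not sorted naive cells. Culture, activation, compound and the reporter sort therefore cannot be told apart in the difference from naive cells. The replicates are described as biological, but whether each came from its own animal is not stated, so p-values measure only the spread between these libraries.

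A naive CD4+ T cell is a small, quiescent cell that recirculates through lymph nodes. After stimulation through the T cell receptor and CD28 it enlarges, turns to glycolysis, divides and takes up an effector fate. IL-12 acting through STAT4, and interferon-gamma, acting in part through T-bet, steer it to the Th1 fate, whose hallmark cytokine is interferon-gamma itself.

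Of 22048 genes in the count table, 12343 passed the filter on low counts and entered edgeR's quasi-likelihood test, with p-values adjusted over all of them by the Benjamini-Hochberg method. A gene is said to have risen or fallen where its adjusted p was under 0.05, and folds are on the log2 scale, YFPpos over naive, unless named otherwise. In YFPpos cells 5256 genes (42.6%) were higher and 4598 (37.3%) lower. At 2-fold or more, 3129 genes (25.4%) were higher and 2267 (18.4%) lower, and these shares are the background for every list below. The median log2 fold change over all genes tested was 0.09, the median absolute value 0.90, and 5% of genes lay above 5.62 and 5% below -2.39. Levels in the YFPpos and naive libraries did not overlap for 10666 of the 12343 genes tested (86.4%), so a lack of overlap marks no gene out. The genes at least 2-fold higher took 26.1% to 26.6% of counts in YFPpos libraries, against 6.25% to 6.30% in naive libraries. Those at least 2-fold lower took 9.31% to 9.94% of counts in YFPpos libraries, against 30.4% to 30.6% in naive libraries.

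The YFPpos libraries held 20669927 to 22972900 counts and the naive libraries 16856850 to 18306721 counts. The reads outside annotated features made up 7.071% to 7.284% in YFPpos and 11.64% to 11.80% in naive libraries. All 12 markers of CD4 T cells were detected in both groups. Their summed level was 4687 to 5330 CPM (counts per 1000000, TMM-scaled) in YFPpos and 7050 to 7236 CPM in naive libraries. In bulk samples fewer cells of a type and less RNA per cell cannot be told apart. B cell markers summed to 1.39 to 1.73 CPM in YFPpos and 1.92 to 2.89 CPM in naive libraries. Of these, Ebf1 had means of 0.691 CPM in YFPpos and 0.020 CPM in naive libraries, while Cd79a (0.195 and 1.09 CPM) and Cd79b (0.0463 and 0.763 CPM) fell. Myeloid markers summed to 5.06 to 6.12 CPM in YFPpos and 13.2 to 16.2 CPM in naive libraries. The largest was Cd68 (3.92 and 5.62 CPM), which did not pass the test (adjusted p 0.0977). Of 7 tested 4 were at least 2-fold lower, among them Lyz2 (0.0144 and 2.10 CPM), Csf1r (0.0623 and 1.84 CPM) and Adgre1 (0.0448 and 0.885 CPM), and none was at least 2-fold higher. All 6 erythroid markers were at 0 in YFPpos libraries, against a sum of 0.187 to 1.59 CPM in naive libraries. The CD8 gene pair summed to 4.76 to 6.40 CPM in YFPpos and 16.1 to 19.3 CPM in naive libraries. Most of it was Cd8b1 (means of 5.10 CPM in YFPpos and 17.6 CPM in naive libraries). Cd8a had means of 0.571 CPM in YFPpos and 0.199 CPM in naive libraries and did not pass the test (adjusted p 0.148). The dendritic cell list summed to 3.77 to 5.88 CPM in YFPpos and 0.659 to 1.64 CPM in naive libraries. In YFPpos libraries nearly all of it was Zbtb46 (mean 4.65 CPM, against 0.276 CPM in naive libraries). Flt3 (0.0867 and 0.236 CPM) and Itgax (0.0288 and 0.387 CPM) had lower means in YFPpos, and 4 members were at 0 there. The stromal list summed to 37.6 to 42.1 CPM in YFPpos and 245 to 256 CPM in naive libraries. Nearly all of this was Pecam1, which naive T cells express too (38.2 ± 1.97 CPM in YFPpos and 249.9 ± 5.43 CPM in naive libraries, SD, n = 3 each). The part of other cells in the results below was not tested.

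The plot of the gene lists sets each of them beside these background shares. The lists range from chemokines, all of which were at least 2-fold higher, to the Gimap GTPases, none of which was.

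**Figure D1:**
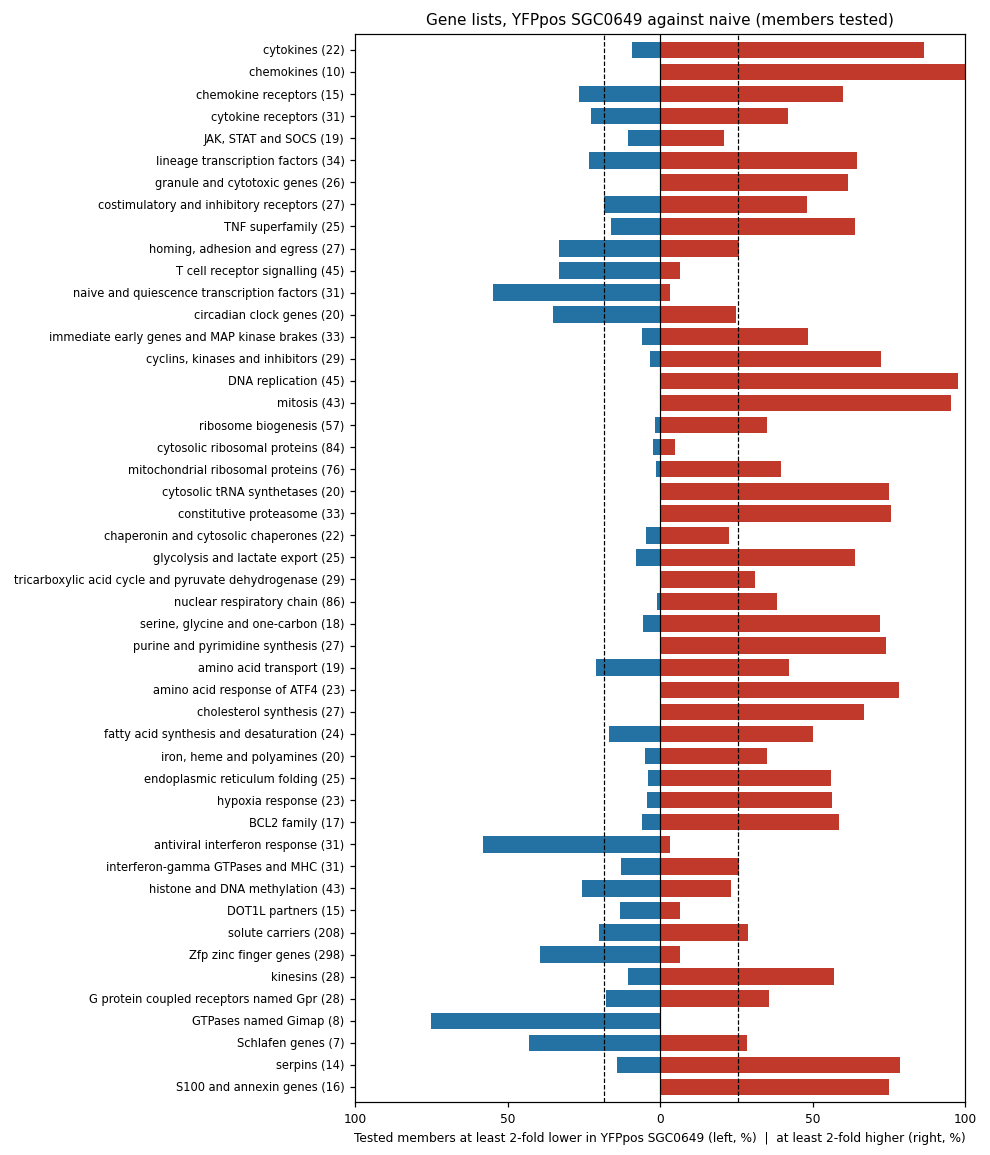
Share of the tested members of each of 48 gene lists that were at least 2-fold higher (red, right of 0, in percent) or at least 2-fold lower (blue, left of 0, in percent) in YFPpos SGC0649 than in naive cells at an adjusted p under 0.05, with the number of members tested in brackets. The dashed lines mark the shares over all genes, 25.4% higher and 18.4% lower; DNA replication, mitosis and chemokine genes lie farthest to the right and Gimap, antiviral and quiescence genes farthest to the left.

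Levels of different genes were compared per length of transcript (CPM per kb of exon, rescaled to 1000000). On this scale Gzmb, the granule protease granzyme B, averaged 9190.3 in YFPpos and 4.37 in naive cells. Ly6a, the surface antigen Sca-1, averaged 4038 in YFPpos and 275 in naive cells, although 19% of its transcript 50-mers also occur in other genes, mainly of the Ly6 family. Lgals1, which encodes the lectin galectin-1, averaged 2697 in YFPpos and 167 in naive cells. Ldha, the lactate dehydrogenase chain that favours lactate production, averaged 3006 in YFPpos and 551 in naive cells, and Ifng 2079.6 in YFPpos and 0.188 in naive cells. The translation factor gene Eif5a, whose product carries the hypusine modification, averaged 2441 in YFPpos and 453 in naive cells. On the side of the losses, the mitochondrial gene mt-Co1 averaged 13583 in YFPpos and 19171 in naive cells, with 51.1% of its 50-mers shared with nuclear copies. The MHC class I gene H2-K1 averaged 1803 in YFPpos and 5655 in naive cells, and Tcf7, which encodes the naive and memory factor TCF-1, 214 in YFPpos and 2887 in naive cells.

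Cytokine genes were largely off in naive cells and on in YFPpos cells. Of 22 cytokine genes tested, 19 were at least 2-fold higher and 2 at least 2-fold lower, and their median log2 fold change was 4.84, or 4.36 with genes at 0 in naive cells set to their bounds. Ifng (ENSMUSG00000055170, chromosome 10, 118441046 to 118445892, GRCm38) had 671, 611 and 929 CPM in the YFPpos libraries, against 0, 0.187 and 0 CPM in the naive libraries. Its sort makes this level part of the selection of the cells, and 19.9% of its 50-mers are shared with an overlapping gene model. Il3, a growth factor of myeloid precursors, had 10.1, 9.70 and 16.1 CPM in YFPpos and 0 in all 3 naive libraries, at least 202-fold higher when 3 counts are taken as the most that the 3 naive libraries together could hide. Csf2, which encodes GM-CSF, had 4.25, 4.40 and 7.44 CPM in YFPpos libraries and 0 in naive libraries, at least 90.6-fold higher. The same on-off pattern held for Il24, at least 399-fold higher, for Il10, the anti-inflammatory cytokine, at least 139.9-fold higher, and for Il13, a Th2 cytokine, at least 62.1-fold higher. Il13 had 3.38, 5.40 and 2.47 CPM in YFPpos libraries, while the other Th2 cytokines stayed near the detection limit, with Il4 at 0.564, 0.621 and 0.389 CPM and Il5 at 0.781, 0.478 and 0.26 CPM in YFPpos, against 0.0599, 0.0623 and 0 CPM for Il4 and 0.0599, 0 and 0 CPM for Il5 in naive libraries.

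Lif, a cytokine of the IL-6 family, had 153, 221 and 331 CPM in YFPpos libraries, against 0.18, 0.249 and 0.567 CPM in naive libraries, a log2 fold change of 9.42 (SE 0.39, adjusted p 3.05e-13). The YFPpos libraries varied more than 2-fold among themselves, and none overlapped the naive libraries. Il21, which acts on B cells and on T cells themselves, had 103, 91.0 and 65.4 CPM in YFPpos and 0.18, 0.187 and 0 CPM in naive libraries, and was lowest in the YFPpos library in which Lif was highest. Il2, the T cell growth factor, reached only 2.26, 3.20 and 5.93 CPM in YFPpos libraries, against 0.0599, 0.0623 and 0.113 CPM in naive libraries. Lta, which encodes lymphotoxin-alpha, had 135, 176 and 314 CPM in YFPpos and 28.2, 25.9 and 28.7 CPM in naive libraries, and its neighbour Tnf 76.6, 82.3 and 108 CPM in YFPpos and 21.9, 20.8 and 19.7 CPM in naive libraries. The partner chain of lymphotoxin went the other way, for Ltb fell by 1.18 on the log2 scale (SE 0.08), with 268, 257 and 252 CPM in YFPpos and 597, 590.1 and 573 CPM in naive libraries. Il16, a chemoattractant stored by resting lymphocytes, fell by 2.04 (SE 0.08), with 165, 152 and 126 CPM in YFPpos and 608, 614 and 598 CPM in naive libraries.

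**Figure D2:**
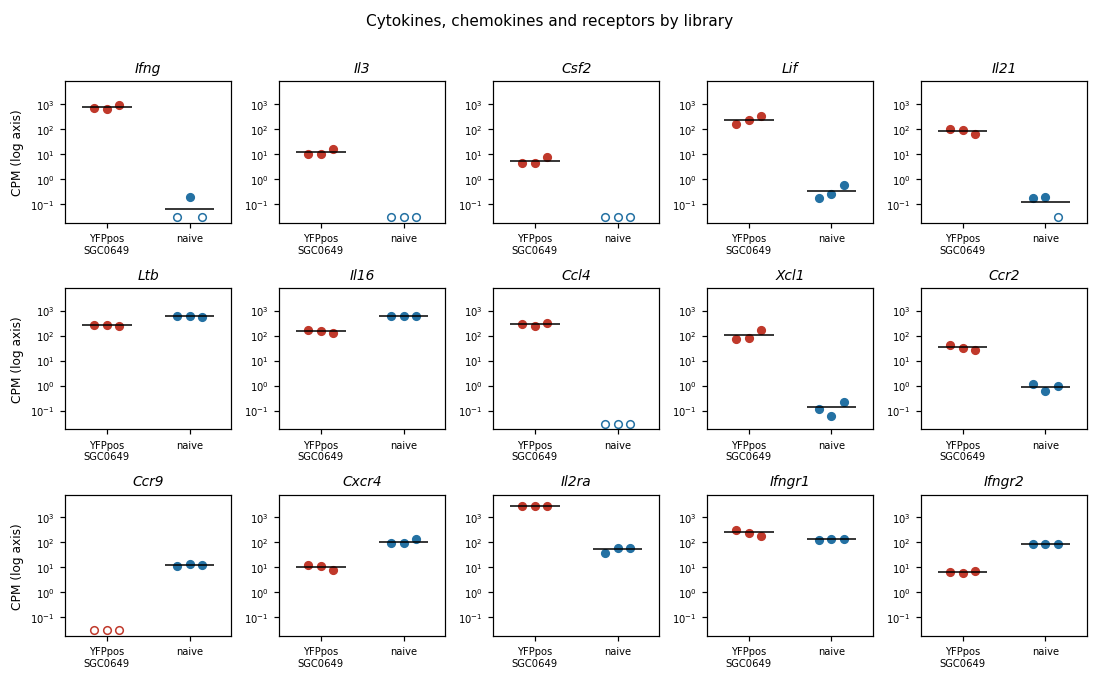
Level of 15 cytokine, chemokine and receptor genes in each library (CPM, log axis; 3 YFPpos SGC0649 libraries in red on the left of each panel, 3 naive libraries in blue on the right; black lines are means, open circles are libraries at 0 drawn at the bottom of the axis). Ltb, Il16, Ccr9, Cxcr4 and Ifngr2 are lower in YFPpos cells, and the other 10 genes are higher, with no overlap between the groups. The same lack of overlap held for 86.4% of all genes tested.

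All 10 chemokine genes tested were at least 2-fold higher in YFPpos cells. Ccl3 and Ccl4 encode a pair of closely related inflammatory chemokines. Ccl3 had 271, 219.7 and 336 CPM in YFPpos libraries, against 0.0599, 0 and 0.17 CPM in naive libraries, and Ccl4 had 296, 249.6 and 314 CPM in YFPpos, against 0 in all 3 naive libraries. Xcl1, which attracts cross-presenting dendritic cells, was uneven, with 72.2, 77.5 and 174 CPM in YFPpos and 0.12, 0.0623 and 0.227 CPM in naive libraries. Ccl1, a ligand of CCR8, was less even still at a lower level, with 2.91, 2.68 and 11.1 CPM in YFPpos libraries and 0 in naive libraries. Ccl5, the late effector chemokine RANTES, had 22.6, 13.7 and 8.65 CPM in YFPpos and 1.44, 0.374 and 1.64 CPM in naive libraries and reached 56.9 per length in YFPpos cells, where Ccl3 reached 1315. Cxcl10, an interferon-inducible ligand of CXCR3, had 6.59, 5.11 and 4.97 CPM in YFPpos and 0.24, 0.0623 and 0.283 CPM in naive libraries.

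Of 15 chemokine receptor genes tested, 9 were at least 2-fold higher and 4 at least 2-fold lower. Ccr9 (ENSMUSG00000029530, chromosome 9, 123678439 to 123784330, GRCm38), the gut-homing receptor, had 0 counts in all 3 YFPpos libraries, against 11.9 ± 0.964 CPM in naive libraries (mean and SD, n = 3), at least 266-fold lower. Cxcr4, the receptor of CXCL12, fell by 3.31 on the log2 scale (SE 0.16), with 10.4 ± 2.22 CPM in YFPpos and 104 ± 21.8 CPM in naive libraries (mean and SD, n = 3 each). Ccr2, the monocyte chemoattractant receptor, had 43.1, 31.1 and 26.8 CPM in YFPpos and 1.14, 0.623 and 0.964 CPM in naive libraries, and Ccr4, a receptor more often named with Th2 cells, 34.8, 42.2 and 47.5 CPM in YFPpos and 1.32, 1.25 and 1.08 CPM in naive libraries. Cxcr3, the receptor used to mark Th1 cells, had only 8.07, 8.65 and 11.9 CPM in YFPpos libraries, against 0.959, 0.747 and 0.794 CPM in naive libraries. Ccr7, which guides naive cells into lymph nodes, did not fall: it had 609, 664 and 617 CPM in YFPpos and 511, 484 and 513 CPM in naive libraries and rose by 0.32 (SE 0.06).

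Receptor chains for IL-2, IL-12 and IL-18 rose, while receptors for IL-6, IL-7 and TGF-beta fell. Of 31 cytokine receptor genes tested, 13 were at least 2-fold higher and 7 at least 2-fold lower. The inducible IL-2 receptor chains Il2ra and Il2rb rose by 5.74 (SE 0.16) and 3.75 (SE 0.11), whereas the shared chain Il2rg had a log2 fold change of -0.18 (SE 0.05). The fall of Il2rg lost its call with library totals as the only scaling (adjusted p 0.0565). The accessory chain of the IL-18 receptor, Il18rap, had 143, 138 and 143 CPM in YFPpos libraries, against 1.56, 0.872 and 2.38 CPM in naive libraries, and the ligand-binding chain Il18r1 349, 309 and 343 CPM in YFPpos and 84.6, 73.1 and 78.7 CPM in naive libraries. For the IL-12 receptor, Il12rb1 had 135, 137 and 133 CPM in YFPpos and 2.10, 1.74 and 3.57 CPM in naive libraries, and Il12rb2 954, 871 and 734 CPM in YFPpos and 0.779, 1.87 and 0.68 CPM in naive libraries. Il1rl1, which encodes the IL-33 receptor ST2, had 28.5, 27.2 and 44.8 CPM in YFPpos and 0.24, 0.561 and 0.283 CPM in naive libraries.

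The chains of the interferon-gamma receptor moved apart. Ifngr1, the ligand-binding chain, had 314, 243 and 182 CPM in YFPpos and 125, 135 and 131 CPM in naive libraries and rose by 0.92 (SE 0.14). Ifngr2 (ENSMUSG00000022965, chromosome 16, 91547072 to 91565623, GRCm38), the signalling chain, had 6.46, 5.69 and 7.27 CPM in YFPpos libraries, against 87.1, 86.1 and 87.9 CPM in naive libraries, and fell by 3.75 (SE 0.13, adjusted p 3.44e-14). The groups did not overlap for either chain. Among the receptors of naive cells, Il6ra fell by 4.03 (SE 0.10), Tgfbr2, a TGF-beta receptor chain, by 2.85 (SE 0.07) and Il7r, the IL-7 survival receptor, by 2.27 (SE 0.19). Il7r had 226, 162 and 108 CPM in YFPpos and 809, 737 and 842 CPM in naive libraries.

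Downstream of these receptors lie the JAK kinases, the STAT factors and the SOCS feedback inhibitors. The 19 genes tested had a median log2 fold change of 0.12, with 4 at least 2-fold higher and 2 at least 2-fold lower. Jak1 fell by 1.70 (SE 0.06), with 485, 474 and 446 CPM in YFPpos and 1548, 1552 and 1480.2 CPM in naive libraries. Of the SOCS family, Cish rose by 3.50 (SE 0.10) and Socs2 by 5.16 (SE 0.19), with 89.1, 116 and 127 CPM in YFPpos and 2.34, 3.30 and 3.63 CPM in naive libraries. Socs1, the inhibitor of interferon-gamma signalling, rose by 2.18 (SE 0.10) and Socs3, which restrains IL-6 signalling, by 0.47 (SE 0.10).

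Transcription factors of the lineages changed in a mixed pattern. Of 34 tested, 22 were at least 2-fold higher and 8 at least 2-fold lower. Irf4, which scales with receptor signal strength, had 1026, 1091 and 1105 CPM in YFPpos and 6.41, 8.35 and 7.54 CPM in naive libraries. The AP-1 family gene Batf rose by 1.30 (SE 0.12), while its relative Batf3 had 41.7, 34.0 and 42.4 CPM in YFPpos libraries and 0 in naive libraries, at least 664-fold higher. Hlx, a homeobox gene that acts with T-bet, had 16.2, 13.5 and 8.39 CPM in YFPpos, against 0 in naive libraries, at least 213-fold higher. Zbtb32, a repressor induced by activation, had 81.3, 66.8 and 76.5 CPM in YFPpos and 0.0599, 0.125 and 0.113 CPM in naive libraries. The 3 Runx genes differed. Runx2 had 66.3, 44.4 and 50.9 CPM in YFPpos libraries, against 0.599, 1.43 and 1.36 CPM in naive libraries, Runx3, a partner of T-bet, rose by 1.16 (SE 0.06), and Runx1 fell by 2.16 (SE 0.10), with 24.7, 33.4 and 28.6 CPM in YFPpos and 122, 132 and 133 CPM in naive libraries.

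The inhibitors of E proteins split as well, for Id2 rose by 2.03 (SE 0.12) and Id3 fell by 2.21 (SE 0.16). Bcl6, the regulator of follicular helper cells, fell by 1.67 (SE 0.18), and its antagonist Prdm1, which encodes Blimp-1, rose by 1.06 (SE 0.26) with 37.7, 26.4 and 13.1 CPM in YFPpos and 11.5, 13.0 and 12.5 CPM in naive libraries, so that 1 YFPpos library was at the naive level. Of the regulators usually named with exhausted or regulatory T cells, Tox fell by 2.40 (SE 0.12) and Ikzf2, which encodes Helios, by 3.57 (SE 0.28).

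Of 26 granule genes tested, 16 were at least 2-fold higher and none was at least 2-fold lower. Gzmb had 3583, 3502 and 3744 CPM in YFPpos libraries, against 1.44, 2.80 and 0.567 CPM in naive libraries, and Gzmc 11.1, 7.03 and 11.8 CPM in YFPpos and 0.539, 0.81 and 0.227 CPM in naive libraries. Nkg7, a granule membrane protein, had 549, 482 and 489 CPM in YFPpos and 0.599, 0.436 and 0.907 CPM in naive libraries. The pore-forming protein perforin did not follow, for Prf1 had 47.0, 27.1 and 22.6 CPM in YFPpos and 48.9, 52.3 and 48.1 CPM in naive libraries and fell by 0.62 (SE 0.19), with the YFPpos library 61 close to the naive level. Fasl, which kills through the receptor FAS, rose by 1.80 (SE 0.17). The granzyme B inhibitor Serpinb9 rose by 2.67 (SE 0.15) and its relative Serpinb6b by 3.22 (SE 0.13).

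Receptors that tune activation were more often higher than lower. Of 27 costimulatory and inhibitory receptor genes, 13 were at least 2-fold higher and 5 at least 2-fold lower. Lag3 had 229.9, 169.6 and 133 CPM in YFPpos and 0.419, 0.374 and 0.907 CPM in naive libraries, and Havcr2, which encodes TIM-3, 36.5, 21.2 and 18.0 CPM in YFPpos and 0.0599, 0.125 and 0 CPM in naive libraries. Pdcd1, which encodes PD-1, rose by 3.88 (SE 0.12) and Ctla4 by 4.24 (SE 0.11). Among receptors of nectins and nectin-like molecules, Tigit rose by 6.02 (SE 0.31) and Crtam by 3.08 (SE 0.25), while Cd226 fell by 3.41 (SE 0.19) and Cd96 by 2.99 (SE 0.11). The SLAM receptors likewise parted, with Slamf7 at 101, 94.8 and 110.1 CPM in YFPpos and 1.68, 0.997 and 2.15 CPM in naive libraries and Slamf6 at 25.2, 27.3 and 25.5 CPM in YFPpos and 189, 187 and 193 CPM in naive libraries. Icos rose by 2.90 (SE 0.07), and Cd28, its constitutive relative, by 0.64 (SE 0.08).

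In the TNF superfamily 16 of 25 tested genes were at least 2-fold higher and 4 at least 2-fold lower. The costimulatory receptor genes Tnfrsf9 and Tnfrsf4, which encode 4-1BB and OX40, rose by 6.49 (SE 0.10) and 4.84 (SE 0.10). Tnfsf4, the gene of the OX40 ligand, was itself at 76.0, 82.3 and 97.9 CPM in YFPpos libraries, against 0.12, 0.374 and 0.283 CPM in naive libraries. Tnfrsf8, which encodes CD30, had 30.1, 25.9 and 26.4 CPM in YFPpos and 0 in naive libraries, at least 462-fold higher, and its ligand Tnfsf8 had 248, 338 and 422 CPM in YFPpos and 90.6, 85.6 and 91.1 CPM in naive libraries. Cd27, the costimulatory receptor of resting cells, fell by 2.04 (SE 0.07). Cd40lg, the helper signal to B cells, had 126, 126 and 136 CPM in YFPpos and 136, 137 and 129 CPM in naive libraries and did not pass the test (adjusted p 0.673).

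Of 27 genes of homing, adhesion and egress 9 (33.3%) were at least 2-fold lower and 7 (25.9%) at least 2-fold higher, the second of these at the background share. S1pr1, which draws lymphocytes out of lymph nodes, had 57.9, 48.3 and 38.1 CPM in YFPpos and 648, 572 and 591 CPM in naive libraries and fell by 3.65 (SE 0.11). The integrin genes Itga4 and Itgb7, whose products pair in the gut-homing integrin, fell by 4.58 (SE 0.09) and 2.74 (SE 0.11). Itga4 had 24.5, 28.1 and 28.5 CPM in YFPpos and 649, 664 and 625 CPM in naive libraries. Itgb1, the other partner of the alpha4 chain, rose by 1.70 (SE 0.08). Fut7, a fucosyltransferase that helps to make selectin ligands, had 37.3, 32.4 and 26.9 CPM in YFPpos libraries, against 0.419, 0.125 and 0.624 CPM in naive libraries, and Gcnt1, which branches O-glycans on them, 55.5, 39.2 and 29.8 CPM in YFPpos and 0.18, 0.0623 and 0.283 CPM in naive libraries. Cd44, whose absence marked the naive sort, rose by 1.77 (SE 0.13).

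T cell receptor signalling genes were lower in 31 of 45, 15 of them by 2-fold or more, and 3 were at least 2-fold higher. Trat1, an adaptor that stabilises the receptor complex, fell by 4.63 (SE 0.12), with 3.77, 4.21 and 3.89 CPM in YFPpos and 95.2, 101 and 98.5 CPM in naive libraries. Dgka, the diacylglycerol kinase that damps the signal, had 387, 354 and 314 CPM in YFPpos libraries, against 2159, 2176 and 2242 CPM in naive libraries. Pag1, an adaptor that recruits the inhibitory kinase CSK, fell by 3.38 (SE 0.08). The receptor complex itself fell less, Cd3e by 1.12 (SE 0.07), Cd4 by 0.96 (SE 0.06) and the kinase gene Lck by 0.93 (SE 0.05). Cblb, a ubiquitin ligase that restrains activation, rose by 1.55 (SE 0.09), with 619, 568 and 457 CPM in YFPpos and 187, 191 and 184 CPM in naive libraries.

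Of 31 regulators of quiescence 17 were at least 2-fold lower and 1 at least 2-fold higher, with a median log2 fold change of -1.05. Klf2, which drives S1pr1, had 26.7, 21.9 and 13.3 CPM in YFPpos and 442, 384 and 437 CPM in naive libraries and fell by 4.35 (SE 0.18). Klf3 fell by 4.70 (SE 0.09) and Tcf7 by 3.66 (SE 0.07), with 151, 158 and 151 CPM in YFPpos and 1991, 1892 and 1933 CPM in naive libraries. Tsc22d3, a glucocorticoid-induced gene, fell by 4.33 (SE 0.20) and Txnip, a brake on glucose uptake, by 3.00 (SE 0.13). Both antiproliferative genes Btg1 and Btg2 fell, by 1.59 (SE 0.06) and 2.15 (SE 0.06). Lef1 fell by 2.08 (SE 0.06) and Foxo1 by 1.68 (SE 0.07), whereas the chromatin organiser Satb1 rose by 0.35 (SE 0.07).

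Of 20 clock genes tested 5 (25%) were at least 2-fold higher, near the background share, 7 (35%) at least 2-fold lower and 6 did not pass the test. The repressor gene Nr1d2 fell by 2.42 (SE 0.13), the output gene Dbp by 2.86 (SE 0.23), with 1.87, 3.15 and 3.24 CPM in YFPpos and 20.5, 20.1 and 19.4 CPM in naive libraries, and the core activator Arntl by 1.64 (SE 0.11). Npas2, a relative of Clock, rose by 3.28 (SE 0.22). The repressors that T cells also use outside the clock rose as well, Nfil3 with 87.3, 72.5 and 51.3 CPM in YFPpos and 1.44, 1.37 and 1.87 CPM in naive libraries and Bhlhe40 with 665, 567 and 500.4 CPM in YFPpos and 0.779, 0.997 and 1.13 CPM in naive libraries.

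Immediate early genes, which mark recent receptor signals, were listed together with brakes of the MAP kinases. Of the 33 genes tested 16 were at least 2-fold higher and 2 at least 2-fold lower. Nr4a1 had 192, 205 and 223 CPM in YFPpos and 42.2, 44.0 and 42.1 CPM in naive libraries, and Nr4a3 222, 269 and 338 CPM in YFPpos and 22.1, 25.1 and 22.9 CPM in naive libraries. Egr1 rose by 0.42 (SE 0.07), and Fos, with 18.2, 17.8 and 19.5 CPM in YFPpos and 19.5, 23.4 and 24.9 CPM in naive libraries, did not pass the test (adjusted p 0.0574). The difference of Fos, lower in YFPpos, passed without naive library 1 (adjusted p 0.0241) and in a fit of only these 2 groups (adjusted p 0.0157). The phosphatase gene Dusp4, which switches off MAP kinases, rose by 5.88 (SE 0.16), and Dusp10, which acts on the JNK and p38 kinases, fell by 3.04 (SE 0.12).

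Cell cycle genes were high in YFPpos cells and low in naive cells. Of 45 replication genes 44 were at least 2-fold higher, of 43 mitosis genes 41, and none of either list was at least 2-fold lower. The medians were 2.71 and 6.62. Rrm2, the regulated subunit of ribonucleotide reductase, had 475, 473 and 498 CPM in YFPpos and 3.36, 4.36 and 4.76 CPM in naive libraries. Mcm10, another replication gene, had 124, 126 and 139.8 CPM in YFPpos and 0.0599, 0.187 and 0.51 CPM in naive libraries. Aurkb, the kinase of chromosome segregation, had 174, 176 and 168 CPM in YFPpos and 0.419, 0.81 and 0.283 CPM in naive libraries. Cdc20, the activator of the anaphase-promoting complex, had 184, 188 and 177 CPM in YFPpos and 3.24, 3.43 and 3.80 CPM in naive libraries, and Ube2c, its ubiquitin-conjugating enzyme, 209, 211 and 207 CPM in YFPpos and 0.24, 0.374 and 0.51 CPM in naive libraries. Among the cyclins, Ccna2 had 371, 378 and 368 CPM in YFPpos and 0.899, 1.31 and 1.25 CPM in naive libraries, while Ccnd2, which naive cells already express, rose by only 0.32 (SE 0.07). The repressor gene E2f7, which ends S phase transcription, had 44.2, 43.5 and 44.5 CPM in YFPpos and 0.0599, 0.0623 and 0.0567 CPM in naive libraries.

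The inhibitors of cyclin-dependent kinases moved apart. Cdkn1a (ENSMUSG00000023067, chromosome 17, 29090976 to 29100727, GRCm38), which encodes p21 and is a p53 target, had 304, 327 and 403 CPM in YFPpos libraries, against 0.12, 0.0623 and 0.0567 CPM in naive libraries, a log2 fold change of 11.98 (SE 0.28, adjusted p 2.03e-16). Cdkn1b, which encodes p27 and keeps naive cells out of cycle, had 86.9, 77.3 and 64.2 CPM in YFPpos and 384, 387 and 356 CPM in naive libraries and fell by 2.30 (SE 0.10).

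Promoters of the mitosis genes are shown because the members moved together and because late cell cycle genes are known for CHR (TTTGAA) and CCAAT elements. In the 250 bases before the RefSeq start (GRCm38.p6), CCAAT or its reverse complement was present in 29 of 38 mitosis genes with a promoter sequence (76.3%), against 40.6% of the 9413 tested genes with one. TTTGAA or its reverse complement was present in 15 of 38 (39.5%), against 12.5% of the same 9413 genes. Neither motif lies within the other, and a gene counted when any of its listed starts held the motif. Both elements are in capitals in the following promoters, Cdc20 at chr4:118437344-118437593 on the minus strand and Ube2c at chr2:164769679-164769928 on the plus strand, with motifs from 8 to 53 bases before the start in Cdc20 and from 29 to 228 bases in Ube2c.
Cdc20: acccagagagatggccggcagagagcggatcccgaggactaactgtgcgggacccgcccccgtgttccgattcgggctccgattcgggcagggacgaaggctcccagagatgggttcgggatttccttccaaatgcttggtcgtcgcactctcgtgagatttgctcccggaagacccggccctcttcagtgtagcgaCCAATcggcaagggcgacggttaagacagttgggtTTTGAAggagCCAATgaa
Ube2c: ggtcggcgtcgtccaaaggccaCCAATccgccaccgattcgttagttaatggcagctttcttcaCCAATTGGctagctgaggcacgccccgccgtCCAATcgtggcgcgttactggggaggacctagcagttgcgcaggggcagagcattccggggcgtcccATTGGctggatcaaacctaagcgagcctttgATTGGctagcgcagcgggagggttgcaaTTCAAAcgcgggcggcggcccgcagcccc
A match is a description of these letters and was not tested as a site.

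Of 57 genes of ribosome biogenesis and the MYC network 20 were at least 2-fold higher and 1, Mxd4, at least 2-fold lower, with a median log2 fold change of 0.79. Ncl, which encodes nucleolin, had 1980.3, 2284 and 2778 CPM in YFPpos and 640.4, 645 and 629 CPM in naive libraries, and Nhp2, a component of RNA-modifying particles, 114, 130.0 and 147 CPM in YFPpos and 27.5, 27.0 and 25.7 CPM in naive libraries. Myc, which drives ribosome biogenesis, rose by 1.92 (SE 0.07), and Mxd4, a repressor that competes for its partner MAX, fell by 3.33 (SE 0.09), with 18.4, 19.6 and 16.4 CPM in YFPpos and 181, 195 and 171 CPM in naive libraries. CACGTG, the core of the E box bound by MYC and MAX, was in the 250 bases before the start of 4 of 50 members of this list (8%), Mxd4 among them, against 9.94% of the 9413 genes.

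The cytosolic ribosomal protein genes did not take part as a group, with 4 of 84 at least 2-fold higher, 2 at least 2-fold lower and 32 that did not pass the test. They took 2.71% to 2.75% of counts in YFPpos and 2.84% to 2.98% in naive libraries, and many have near-identical pseudogenes between which the counting could split reads. Rps27l, a p53 target rather than a core ribosomal gene, rose by 2.94 (SE 0.09). Mitochondrial ribosomal protein genes were at least 2-fold higher in 30 of 76. Mrpl20 rose by 1.86 (SE 0.11), whereas Mrpl24 fell by 1.13 (SE 0.06). Of 20 cytosolic tRNA synthetase genes 15 were at least 2-fold higher, and the other 5 were higher by less, with Aars, the alanine enzyme, at 2.25 (SE 0.07) and Dars, the aspartate enzyme, at 0.55 (SE 0.05).

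Proteasome subunits followed, with 25 of 33 at least 2-fold higher, among them the catalytic subunit gene Psmb2, which rose by 1.91 (SE 0.07). Of 22 chaperone genes 5 (22.7%) were at least 2-fold higher, near the background share. Hspd1, the mitochondrial chaperonin, rose by 1.89 (SE 0.11), although 39.7% of its 50-mers also occur in other genes, mostly pseudogenes. The heat shock gene Hspa1b had 1.08, 1.29 and 2.08 CPM in YFPpos and 0.479, 3.05 and 1.02 CPM in naive libraries, with 62.3% of its 50-mers shared mainly with Hspa1a, and Dnaja1, a cochaperone, fell by 1.02 (SE 0.08).

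Of 25 glycolysis genes 16 were at least 2-fold higher and 2 at least 2-fold lower. Hk2, the inducible hexokinase, had 278, 262 and 270.4 CPM in YFPpos and 0.24, 0.81 and 0.567 CPM in naive libraries, while the constitutive Hk1 rose by 1.20 (SE 0.07). Tpi1, triosephosphate isomerase, had 1390.3, 1347 and 1192 CPM in YFPpos and 22.4, 22.5 and 24.4 CPM in naive libraries. The lactate exporter gene Slc16a3 had 321, 278 and 233 CPM in YFPpos libraries, against 1.92, 1.62 and 2.61 CPM in naive libraries. Another member of the monocarboxylate transporter family went to the other extreme, for Slc16a5 (ENSMUSG00000045775, chromosome 11, 115462474 to 115474398, GRCm38) had 0.0868, 0 and 0.13 CPM in YFPpos and 102, 93.3 and 92.2 CPM in naive libraries. Ldhb, the lactate dehydrogenase chain of oxidative tissues, fell by 0.68 (SE 0.12), with 21% of its 50-mers shared with another gene model. Pdk1, whose product inhibits pyruvate dehydrogenase, fell by 2.34 (SE 0.07), with 124, 129 and 111 CPM in YFPpos and 625, 591 and 619 CPM in naive libraries. The glucose transporter gene Slc2a1 rose by 2.85 (SE 0.09). Slc2a3, a related transporter, rose by 0.84 (SE 0.20) with an uneven 196, 154 and 98.6 CPM in YFPpos libraries, against 83.8, 89.3 and 76.5 CPM in naive libraries.

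In the mitochondria 9 of 29 genes of the tricarboxylic acid cycle (31%) and 33 of 86 nuclear genes of the respiratory chain (38.4%) were at least 2-fold higher, against 25.4% of all genes. The first list was not far from this background, with a median log2 fold change of 0.43 and 8 genes that did not pass the test. Pcx, which feeds the cycle with oxaloacetate, had 32.9, 38.8 and 37.9 CPM in YFPpos and 3.48, 4.55 and 4.71 CPM in naive libraries, and Idh2 fell by 0.86 (SE 0.10). Cox5a, a subunit of complex IV, rose by 1.69 (SE 0.06), and Cox7a2l fell by 1.12 (SE 0.08).

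**Figure D3:**
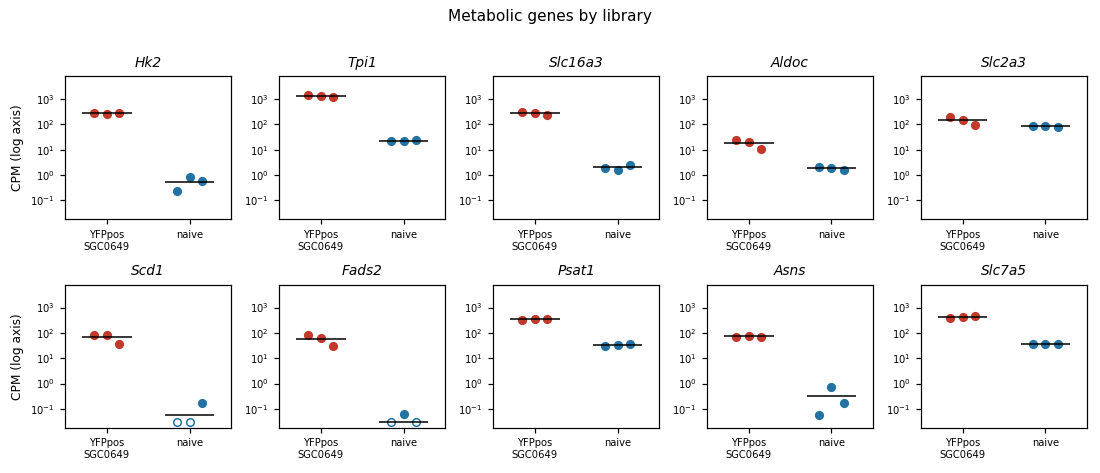
Level of 10 metabolic genes in each library (CPM, log axis; 3 YFPpos SGC0649 libraries in red on the left of each panel, 3 naive libraries in blue on the right; black lines are means, open circles are libraries at 0 drawn at the bottom of the axis). All 10 genes are higher in YFPpos cells with no overlap, as was the case, in either direction, for 86.4% of all genes tested. Aldoc, Slc2a3, Scd1 and Fads2 spread more between YFPpos libraries than Tpi1 or Psat1.

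Serine and one-carbon genes, which supply nucleotide synthesis, were at least 2-fold higher in 13 of 18. Psat1, of serine synthesis, had 319, 353 and 364 CPM in YFPpos and 31.2, 32.6 and 34.9 CPM in naive libraries. The cytosolic and mitochondrial serine hydroxymethyltransferase genes Shmt1 and Shmt2 rose by 4.10 (SE 0.12) and 2.13 (SE 0.11). Mat2a, which makes S-adenosylmethionine, the methyl donor of DOT1L and other methyltransferases, had 370.5, 407 and 466 CPM in YFPpos and 433, 468 and 429 CPM in naive libraries and did not pass the test (adjusted p 0.271), although it was called lower without YFPpos library 63 (adjusted p 0.0262). Cth, of cysteine synthesis, had 2.95, 2.92 and 5.45 CPM in YFPpos and 0 in naive libraries, at least 63.8-fold higher. Purine and pyrimidine genes were at least 2-fold higher in 20 of 27.

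Of 19 amino acid transporter genes 8 were at least 2-fold higher and 4 at least 2-fold lower. Slc7a5 and Slc3a2, which form the leucine transporter, rose by 3.56 (SE 0.09) and 1.41 (SE 0.08). The lysosomal transporter gene Slc36a1 fell by 2.65 (SE 0.08) and Slc38a9, a lysosomal arginine sensor, by 1.76 (SE 0.10). Slc1a5, a glutamine transporter, had 360.2, 368 and 410.3 CPM in YFPpos and 331, 353 and 366 CPM in naive libraries and did not pass the test (adjusted p 0.107), although it did with library totals as the only scaling (adjusted p 0.0137).

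Genes of the amino acid response that ATF4 governs were at least 2-fold higher in 18 of 23. Asns, asparagine synthetase, had 69.6, 74.9 and 71.8 CPM in YFPpos and 0.0599, 0.747 and 0.17 CPM in naive libraries, a log2 fold change of 7.80 (SE 0.26). Atf4 itself rose by 1.23 (SE 0.06). Ddit3, which encodes CHOP, had 20.3, 22.3 and 19.7 CPM in YFPpos and 24.8, 24.2 and 23.9 CPM in naive libraries and did not pass the test (adjusted p 0.142), although it was called lower in a fit of only these 2 groups (adjusted p 0.0155). Chac1, a glutathione-degrading enzyme, had 3.21, 4.73 and 4.24 CPM in YFPpos and 0, 0 and 0.0567 CPM in naive libraries. The composite element of C/EBP and ATF4, read as TGATGCAA on either strand, was in the 250 bases before the start of 6 of 20 members of this list (30%), against 0.691% of the 9413 genes. The list was made of genes known to respond to ATF4, so this share is not independent of how the members were chosen. The 6 were Chac1, Herpud1, Jdp2, Nupr1, Pycr1 and Vldlr. All but Herpud1 (adjusted p 0.998) were at least 2-fold higher, beside 18 of 23 in the whole list. The promoter of Chac1 (chr2:119350992-119351241, plus strand, RefSeq GRCm38.p6) follows with this element in capitals.
Chac1: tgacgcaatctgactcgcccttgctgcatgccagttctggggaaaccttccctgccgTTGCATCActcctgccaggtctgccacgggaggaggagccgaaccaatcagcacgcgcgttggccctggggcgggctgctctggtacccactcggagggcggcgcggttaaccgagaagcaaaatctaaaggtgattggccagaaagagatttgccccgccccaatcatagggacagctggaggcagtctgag

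Cholesterol synthesis genes were at least 2-fold higher in 18 of 27, and none was at least 2-fold lower. Hmgcs1, which commits acetyl-CoA to the pathway, had 358, 328 and 261 CPM in YFPpos and 64.1, 66.3 and 65.1 CPM in naive libraries, Cyp51 348, 346 and 298 CPM in YFPpos and 53.6, 51.1 and 57.3 CPM in naive libraries, and Sqle, squalene epoxidase, 157, 156 and 143 CPM in YFPpos and 28.3, 35.7 and 32.9 CPM in naive libraries. Ggps1, which makes the geranylgeranyl group on a side branch, fell by 0.90 (SE 0.09). CCAAT, the element of NF-Y that works beside SREBP sites, was in 18 of 20 promoters of the list (90%), against 40.6% of the 9413 genes. The promoter of Hmgcs1 (chr13:119690101-119690350, plus strand, RefSeq GRCm38.p6) follows with CCAAT or its reverse complement in capitals.
Hmgcs1: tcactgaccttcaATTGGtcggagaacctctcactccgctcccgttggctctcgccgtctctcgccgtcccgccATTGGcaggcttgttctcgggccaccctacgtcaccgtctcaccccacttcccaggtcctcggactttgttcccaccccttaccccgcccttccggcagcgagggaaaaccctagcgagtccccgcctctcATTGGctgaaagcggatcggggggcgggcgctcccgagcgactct

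Of 24 fatty acid genes 12 were at least 2-fold higher and 4 at least 2-fold lower. The desaturase genes Scd1 and Fads2 were close to 0 in naive cells. Scd1 had 85.6, 78.9 and 35.3 CPM in YFPpos libraries, against 0, 0 and 0.17 CPM in naive libraries, a ratio of 1111-fold (95% counting interval 379.9 to 5389), and Fads2 had 83.4, 62.3 and 31.0 CPM in YFPpos, against 0, 0.0623 and 0 CPM in naive libraries. Their relative Scd2 rose by 4.21 (SE 0.14), and Fasn, fatty acid synthase, by 1.57 (SE 0.07). Acss2, which makes acetyl-CoA from acetate, fell by 3.45 (SE 0.17), with 11.1, 9.27 and 5.58 CPM in YFPpos and 95.6, 91.4 and 95.1 CPM in naive libraries. Cpt1a, the entry to mitochondrial fatty acid oxidation, fell by 1.13 (SE 0.09).

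Of 20 iron, heme and polyamine genes 7 were at least 2-fold higher and 1 at least 2-fold lower. Tfrc, the transferrin receptor, had 912, 1006 and 1124 CPM in YFPpos and 74.1, 77.9 and 70.1 CPM in naive libraries. Slc40a1, the iron exporter ferroportin, had 0, 0.0478 and 0 CPM in YFPpos libraries, 1 count in all, against 2.94, 1.31 and 2.72 CPM in naive libraries. Because macrophages express Slc40a1 strongly, the myeloid markers given above stand beside it. Their sum was 5.06 to 6.12 CPM in YFPpos and 13.2 to 16.2 CPM in naive libraries, mostly Cd68 in YFPpos. Lyz2, Csf1r and Adgre1 differed by more than this sum. The part of macrophages was not tested. Odc1, the first enzyme of polyamine synthesis, rose by 4.15 (SE 0.08), with 24.3% of its 50-mers also in other genes.

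The hypoxia factors moved apart. Hif1a had 1543, 1455 and 1286 CPM in YFPpos and 146, 143 and 137 CPM in naive libraries and rose by 3.33 (SE 0.09), while Epas1, which encodes HIF-2alpha, had 1.08, 0.765 and 0.735 CPM in YFPpos and 28.6, 31.0 and 27.4 CPM in naive libraries and fell by 5.06 (SE 0.27). Of 23 hypoxia response genes 13 were at least 2-fold higher, among them Egln3, an oxygen sensor, with 205, 242 and 228 CPM in YFPpos and 1.56, 1.87 and 1.64 CPM in naive libraries and Vegfa, the angiogenic factor, with 44.3, 41.0 and 38.4 CPM in YFPpos and 0.959, 0.685 and 0.624 CPM in naive libraries. Genes of protein folding in the endoplasmic reticulum were at least 2-fold higher in 14 of 25, with Xbp1 up by 2.27 (SE 0.07) and Sdf2l1, a folding cofactor, up by 3.20 (SE 0.10), while the stress cochaperone Dnajb9 fell by 1.16 (SE 0.12).

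Of 17 BCL2 family genes, which include members that protect from death and members that promote it, 10 were at least 2-fold higher and 1 at least 2-fold lower. Bcl2l1, which encodes BCL-XL, had 81.0, 96.6 and 130.1 CPM in YFPpos and 14.3, 16.1 and 15.8 CPM in naive libraries, Bcl2 rose by 0.83 (SE 0.05), and Mcl1 fell by 0.97 (SE 0.05). Of the death-promoting members, Pmaip1, which encodes NOXA, rose by 5.58 (SE 0.23), Bmf fell by 2.45 (SE 0.50), and Bcl2l11, which encodes BIM, had 127, 93.1 and 77.3 CPM in YFPpos and 96.3, 89.6 and 94.0 CPM in naive libraries and did not pass the test (adjusted p 0.564).

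Interferon-regulated genes of the antiviral type were mostly lower. Of 31 antiviral genes 18 were at least 2-fold lower and 1, Usp18, at least 2-fold higher (log2 fold change 1.17). Oas2, an RNA sensor of viral infection, had 1.21, 1.82 and 1.77 CPM in YFPpos and 78.3, 85.7 and 94.6 CPM in naive libraries and fell by 5.75 (SE 0.21). Irf7 (ENSMUSG00000025498, chromosome 7, 141262706 to 141266481, GRCm38), the amplifier of the type I response, had 6.16, 7.17 and 5.75 CPM in YFPpos and 97.8, 85.7 and 102 CPM in naive libraries, and Rtp4 0.738, 0.812 and 1.86 CPM in YFPpos and 29.8, 29.5 and 35.5 CPM in naive libraries. Ddx58, which encodes the RNA sensor RIG-I, fell by 3.08 (SE 0.08).

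Of 31 interferon-gamma GTPase and MHC genes, 8 (25.8%) were at least 2-fold higher, at the background share, and 4 at least 2-fold lower. Gbp2 and Gbp5, guanylate-binding proteins, rose by 3.45 (SE 0.10) and 3.60 (SE 0.08), while Gbp9 fell by 2.10 (SE 0.08). Cd74, the invariant chain of MHC class II, had 31.2, 33.2 and 33.7 CPM in YFPpos and 3.30, 2.12 and 4.31 CPM in naive libraries, and the class II gene H2-Ab1 15.9, 12.9 and 7.87 CPM in YFPpos and 0.659, 0.187 and 0.907 CPM in naive libraries. The B cell markers, which went both ways, summed to 1.39 to 1.73 CPM in YFPpos and 1.92 to 2.89 CPM in naive libraries. The part of B cells was not tested. H2-K1 fell by 1.55 (SE 0.06), with 1494, 1449.9 and 1402 CPM in YFPpos and 4249, 4158 and 4345 CPM in naive libraries, and its light chain gene B2m by 0.56 (SE 0.07).

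**Figure D4:**
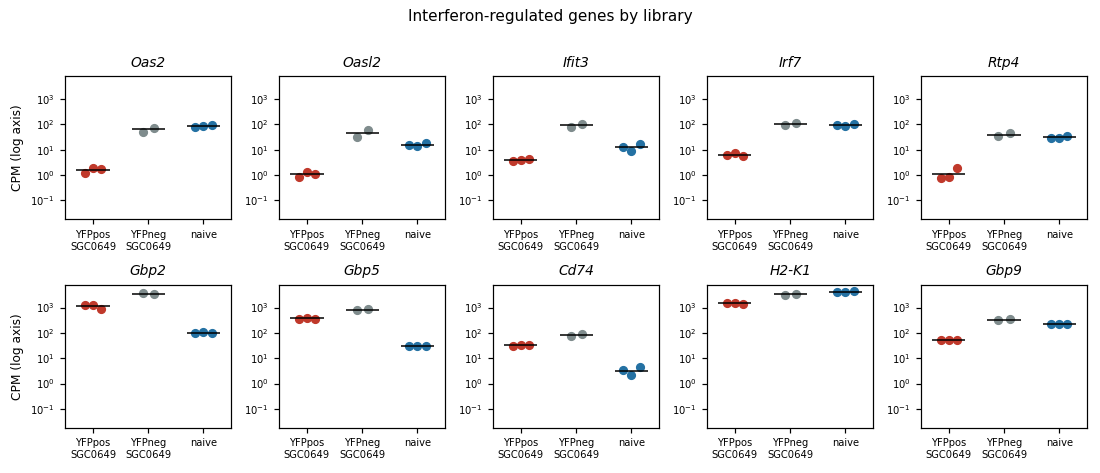
Level of 10 interferon-regulated genes in each library (CPM, log axis; 3 YFPpos SGC0649 libraries in red on the left, 2 YFPneg SGC0649 libraries in grey in the middle, 3 naive libraries in blue on the right; black lines are means). Oas2, Oasl2, Ifit3, Irf7, Rtp4, H2-K1 and Gbp9 are lowest in YFPpos cells, Gbp2, Gbp5 and Cd74 are lowest in naive cells, and all 10 genes are lower in YFPpos than in YFPneg cells.

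Of 43 histone and DNA methylation genes 10 (23.3%) were at least 2-fold higher, near the background share, and 11 (25.6%) at least 2-fold lower. Ezh2, the histone H3K27 methyltransferase of dividing cells, had 316, 309 and 322 CPM in YFPpos and 40.7, 43.2 and 43.6 CPM in naive libraries, and its relative Ezh1 48.7, 43.5 and 37.9 CPM in YFPpos and 130.2, 131 and 126 CPM in naive libraries. Uhrf1, which brings DNA methylation to newly copied DNA, rose by 6.34 (SE 0.08), and Tet1, which oxidises methylated cytosine, fell by 3.87 (SE 0.18). The H3K4 methyltransferase genes Kmt2a and Kmt2c fell by 1.83 (SE 0.07) and 2.94 (SE 0.10). Among 15 DOT1L partner genes, Dot1l included, 1, the elongation factor gene Ell2, was at least 2-fold higher (3.37, SE 0.15) and 2, Kmt2a and Aff1, were at least 2-fold lower. Dot1l, the target of the compound pair, rose by 0.40 (SE 0.07), with 213, 220.1 and 229 CPM in YFPpos and 161, 173 and 167 CPM in naive libraries. Mllt10, a partner that the methyltransferase binds directly, fell by 0.80 (SE 0.08).

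Of 298 tested genes named Zfp, which encode zinc finger proteins, 117 were at least 2-fold lower and 19 at least 2-fold higher, with a median log2 fold change of -0.77. Many of these genes are close copies, so single members were not followed. Of 8 GTPase genes named Gimap 6 were at least 2-fold lower, led by Gimap3 with 569.7, 524 and 460.4 CPM in YFPpos and 2104, 2097 and 2125 CPM in naive libraries, and Gimap7 rose by 0.47 (SE 0.13). Among the Schlafen genes, which restrain growth of lymphocytes, Slfn5 fell by 5.75 (SE 0.11), with 3.08, 3.01 and 2.64 CPM in YFPpos and 153, 146 and 172 CPM in naive libraries, and Slfn9 rose by 1.81 (SE 0.10). Of 28 kinesin genes 16 were at least 2-fold higher, among them the spindle motor Kif11 (7.02, SE 0.09), and 3 at least 2-fold lower, led by Kif21b, which slows microtubule growth in T cells, with 174, 150.5 and 113 CPM in YFPpos and 1270.1, 1258 and 1232 CPM in naive libraries.

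Serpin genes, protease inhibitors, were at least 2-fold higher in 11 of 14. Serpine2 had 202, 145 and 172 CPM in YFPpos and 0.839, 1.06 and 1.02 CPM in naive libraries. S100 and annexin genes, which encode calcium-binding proteins, were at least 2-fold higher in 12 of 16. Anxa2 had 754, 632 and 514 CPM in YFPpos and 3.90, 3.86 and 5.39 CPM in naive libraries, and S100a6 33.8, 24.8 and 24.2 CPM in YFPpos and 0.3, 1.06 and 0.85 CPM in naive libraries. Of 208 solute carrier genes 60 (28.8%) were at least 2-fold higher and 42 (20.2%) at least 2-fold lower, both near the background shares. Slc17a6, known as a glutamate transporter of synaptic vesicles, had 29.8, 33.6 and 20.9 CPM in YFPpos and 0 in naive libraries, at least 469-fold higher. Slc15a2, a peptide transporter, was uneven among naive libraries, with 5.34, 5.59 and 4.97 CPM in YFPpos and 170.2, 67.4 and 38.2 CPM in naive libraries, and the groups still did not overlap.

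**Figure D5:**
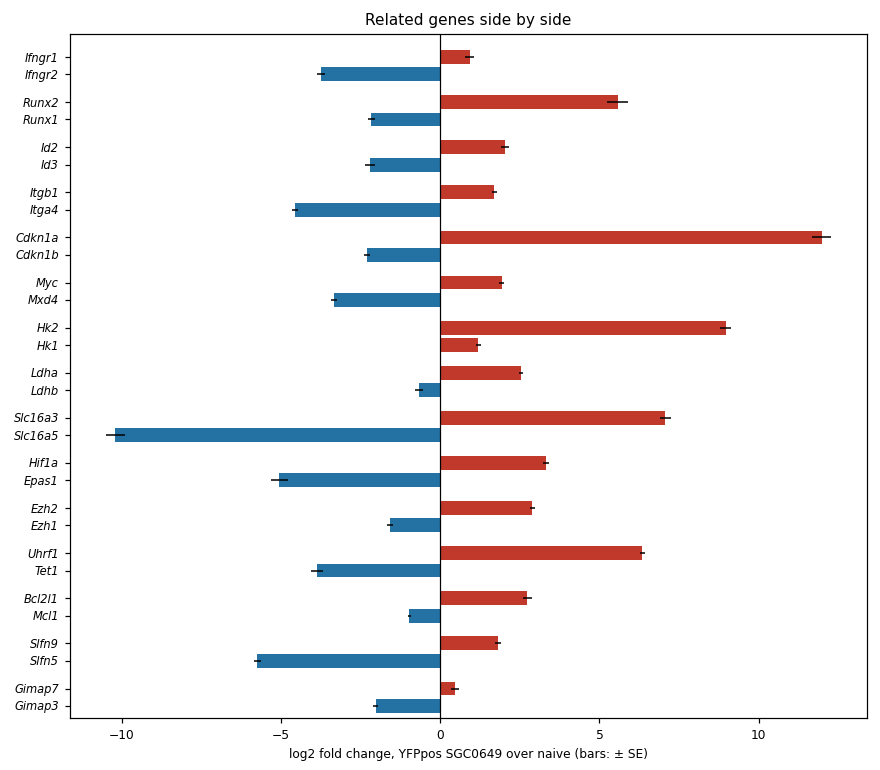
Log2 fold change of 15 pairs of related genes, YFPpos SGC0649 over naive (x axis; red bars higher, blue bars lower, error bars ± SE of the fit; pairs chosen after their values were seen). In 14 pairs one gene is higher and the other lower, and in the hexokinase pair both are higher, Hk2 by 8.96 and Hk1 by 1.20.

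Other genes were at 0 counts in one group. Spp1, which encodes osteopontin, had 29.4, 25.5 and 36.0 CPM in YFPpos libraries and 0 in naive libraries, at least 511-fold higher. On the other side, Il17rb, a receptor of IL-25, was at 0 in YFPpos libraries, against 2.16, 2.30 and 1.98 CPM in naive libraries, at least 47.9-fold lower, and Zcchc12 was at least 71.9-fold lower. C1qa, a complement gene of macrophages, was also at 0 in YFPpos libraries and had 1.86, 0.374 and 1.08 CPM in naive libraries, beside the myeloid sums and single markers given above. Its difference did not pass DESeq2's Wald test (adjusted p 0.143).

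A few genes were uneven across the YFPpos libraries. By the coefficient of variation at a mean of at least 20 CPM, the most uneven was Ly6g, a surface antigen used to mark neutrophils, with 42.4, 18.1 and 3.72 CPM in YFPpos and 0 in naive libraries. The other 7 neutrophil markers, among them S100a8 and S100a9, were at 0 in YFPpos libraries. Serpinb5 followed with 35.9, 23.4 and 4.97 CPM in YFPpos and 0 in naive libraries. Mid1, a ubiquitin ligase gene that binds microtubules, came next with 8.72, 40.8 and 38.5 CPM in YFPpos and 16.4, 19.2 and 8.50 CPM in naive libraries, and the groups overlapped (adjusted p 0.182). Its levels in YFPneg SGC0649 libraries 61 and 62 were 8.33 and 47.5 CPM, and in YFPpos SGC0946 libraries 91, 92 and 93 they were 7.47, 39.6 and 27.8 CPM. Xcl1, described above, and Lad1, an anchoring filament gene, were highest in YFPpos library 63, where Ly6g and Serpinb5 were lowest, Lad1 with 12.5, 18.3 and 36.2 CPM in YFPpos and 3.24, 4.11 and 4.20 CPM in naive libraries. Klrd1, which encodes the NK receptor chain CD94, had 87.1, 45.9 and 33.7 CPM in YFPpos and 31.4, 27.7 and 30.3 CPM in naive libraries, and its rise did not pass the test without YFPpos library 61 (adjusted p 0.174). The NK list summed to 83.7 to 169 CPM in YFPpos and 4.86 to 7.31 CPM in naive libraries. Most of it was Eomes, a T-box factor that activated T cells also express, at 75.6, 112 and 165 CPM in YFPpos and 5.45, 3.99 and 4.48 CPM in naive libraries. The NK receptor genes went both ways. Of 5 members tested 3 were at least 2-fold higher, Eomes, Klre1 (means of 2.52 CPM in YFPpos and 0.292 CPM in naive libraries) and Klri2 (2.34 and 0.139 CPM). Klrb1c was the 1 at least 2-fold lower, with 0, 0 and 0.0865 CPM in YFPpos and 0.539, 0.436 and 0.737 CPM in naive libraries. The 4 Y-linked genes summed to 246 to 280 CPM in YFPpos and 645 to 719 CPM in naive libraries, with Ddx3y at a log2 fold change of -1.90 and Eif2s3y at -0.60. The part of the animals' sex in the results was not tested.

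The YFPneg SGC0649 cells came from the same kind of culture. In a direct test against them the naive levels take no part, though all 14 libraries shared the filter, scaling and estimate of spread. In YFPpos SGC0649 cells 2955 genes (23.9%) were higher and 2630 (21.3%) lower than in YFPneg SGC0649 cells, at an adjusted p under 0.05. Of 43 mitosis genes 41 were higher in YFPpos, of 33 proteasome genes 32, and of 86 respiratory chain genes 66. Of 31 antiviral genes 29 were lower in YFPpos cells and none was higher, and of 31 interferon-gamma GTPase and MHC genes 26 were lower and none higher. Gbp2 had 1250.4, 1224 and 915 CPM in YFPpos, 3597 and 3493 CPM in YFPneg and 102, 109 and 98.8 CPM in naive libraries. Ifngr2, the receptor chain described above, had 6.46, 5.69 and 7.27 CPM in YFPpos, 26.3 and 32.4 CPM in YFPneg and 87.1, 86.1 and 87.9 CPM in naive libraries, a difference of -2.18 between YFPpos and YFPneg (adjusted p 2.98e-09). Il3 had 10.1, 9.70 and 16.1 CPM in YFPpos and 0.559 and 0.822 CPM in YFPneg libraries (4.11, adjusted p 0.000362), and Tcf7 151, 158 and 151 CPM in YFPpos and 749.7 and 718 CPM in YFPneg libraries (-2.26, adjusted p 9.86e-13).

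With the DOT1L inhibitor in place of the control compound, YFPpos SGC0946 cells had 1490 genes (12.1%) higher and 1934 (15.7%) lower than YFPpos SGC0649 cells. With DESeq2 size factors the split was 1702 higher and 1388 lower, so the share of higher calls was 43.5% with TMM and 55.1% with size factors. Of the 57 genes of ribosome biogenesis and the MYC network 49 were lower in YFPpos SGC0946 cells with TMM scaling, 45 with size factors and 46 with library totals alone. Glycolysis genes were higher in 15 of 25, with 17 and 16 under the other scalings. Ccl5 had 110.2, 109 and 90.1 CPM in YFPpos SGC0946 libraries, against 22.6, 13.7 and 8.65 CPM in YFPpos SGC0649 libraries (2.78, adjusted p 2.47e-06). Prf1 had 149, 159.9 and 123 CPM in YFPpos SGC0946 and 47.0, 27.1 and 22.6 CPM in YFPpos SGC0649 libraries (2.16, adjusted p 1.21e-06), and Ifngr2 4.18, 5.76 and 4.94 CPM in YFPpos SGC0946 and 6.46, 5.69 and 7.27 CPM in YFPpos SGC0649 libraries (-0.38, adjusted p 0.0565), a difference that passed without YFPpos SGC0649 library 62 (adjusted p 0.048) or without YFPpos SGC0946 library 92 (adjusted p 0.039). Xcl1 had 26.6, 12.9 and 31.1 CPM in YFPpos SGC0946 libraries, against 72.2, 77.5 and 174 CPM in YFPpos SGC0649 libraries (-2.19, adjusted p 0.000117). Without YFPpos SGC0649 library 63 the counts of this comparison were 867 higher and 1019 lower, and without YFPpos SGC0946 library 92 they were 900 higher and 1104 lower.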

How the data were processed

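Total RNA of 14 sorted-cell libraries was sequenced. The deposited table holds raw read counts per gene, and featureCounts, edgeR, limma and the build GRCm38 are named, with no order, per the submitters' processing notes. Tool versions and settings were not given in the sources used here. Here, 12343 of 22048 genes passed filterByExpr and were fitted together over all 14 libraries and 5 groups in edgeR 4.0.16 (R 4.3.3) with TMM scaling, quasi-likelihood F tests and Benjamini-Hochberg adjustment. Standard errors were obtained from each fold change and its F statistic. Exon lengths came from GENCODE M21, promoters from RefSeq. DESeq2 1.42.0 and limma 3.58.1 served as alternatives. Bounds against a group at 0 use a floor of 3 counts over the group and, like intervals, cover counting error only. The biological coefficient of variation was 9.12%. Simulated data with known changes were used to check the fit. The genes named were key members of 49 lists, members with the largest changes or against their list, genes with the largest changes per length, at 0 in one group, or most uneven, and some of these were left out for space. The groups, lists and genes were chosen with earlier results of these data known. A gene sharing 10% or more of its 50-mers with others is uncertain, as is one overlapping another gene. Shares not given above include 27.5% for Il2rg, 17% for Klrb1c, 15.4% for Uhrf1, 15% for Mid1, 13.8% for Cox7a2l and 13.5% for Aars. They also include 12.6% for Il2, 11.9% for Dnaja1, 11.6% for Rtp4 and Spp1, 11.5% for Slfn9, 11.2% for Rps27l and 10.4% for Cdc20. A few genes are not reported here.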

Additional observations from a re-analysis of the deposited data

Results flagged for a closer look

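In all, 7 genes were called by 2-fold or more in opposite directions when YFPpos SGC0649 and YFPneg SGC0649 cells were each set against naive cells, and also differed between the YFPpos and YFPneg cells in edgeR's test of that difference. All 7 were lower in YFPpos cells. The log2 fold change of YFPpos over YFPneg was -5.41 for Oasl2, -4.50 for Ifit3, -4.05 for Ifit3b and -3.15 for Ifit1, which are antiviral genes. It was -3.74 for Mpeg1, a perforin-like gene of macrophages, -2.91 for Bank1, an adaptor of B cells, and -2.67 for Baiap3. Oasl2 had 0.868, 1.34 and 1.08 CPM in YFPpos, 32.9 and 60.1 CPM in YFPneg and 15.2, 13.5 and 17.6 CPM in naive libraries. Bank1 had 0.174, 0.43 and 0.649 CPM in YFPpos, 2.64 and 3.70 CPM in YFPneg and 1.08, 1.31 and 1.02 CPM in naive libraries, and its difference from naive cells did not pass without YFPpos library 61 (adjusted p 0.0668). Ifit3 and Ifit3b share 51.2% and 45% of their transcript 50-mers with other genes, mainly each other, so they are uncertain as separate genes. Both comparisons with naive cells share the naive libraries.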

How the results depend on the processing

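The counts of genes higher and lower in YFPpos SGC0649 than in naive cells, with and without the 2-fold rule, stayed within 1.5 times of their reported values under other scalings, tests, filters, the replicate block and the omission of single libraries. Leaving out 1 library at a time gave 5006 to 5121 genes higher, 4363 to 4457 lower, 3019 to 3102 at least 2-fold higher and 2221 to 2272 at least 2-fold lower. With edgeR's test against a 2-fold change the counts were 2656 higher and 1787 lower. For YFPpos against YFPneg SGC0649 the counts without single libraries were 2318 to 2714 higher and 2154 to 2446 lower. For YFPpos SGC0946 against YFPpos SGC0649 they were 867 to 1489 higher and 1019 to 1960 lower, and a fit of only these 2 groups called 2583 genes higher. The cause was not tested. Of 4035 values of named genes under alternatives 4016 kept their side of the threshold, 7 lost and 12 gained a call, and 0 reversed with a call in either setting. A change of direction without a call in either setting counted as kept. The median log2 fold change of the interferon-gamma GTPase and MHC list was -0.06, and 0.0148 with library totals alone. Same-numbered YFPpos and YFPneg libraries correlated at 0.106 and 0.0307 with SGC0649 and at 0.098, 0.063 and 0.0432 with SGC0946. These are not over 0.1 in every pair, so the numbers were not taken to pair the samples. All 5 are positive, and each SGC0946 library correlated best with its own number, which is a hint from the data and not the design. With SGC0649 this did not hold throughout, for YFPneg library 62 correlated at 0.0773 with YFPpos library 63 and at 0.0307 with its own number. The deviations of the 2 YFPneg SGC0649 libraries are exact opposites, so their correlations mirror each other. Correlations between different numbers with SGC0946 were -0.0596 to -0.000503. The values are deviations from group means and sum to 0 within a group, so these negative correlations add no separate hint. Mid1, whose levels move with the number, had an adjusted p of 0.182 against naive cells and 0.00303 with the replicate block, and Fos passed with it (adjusted p 0.0328). YFPpos SGC0649 and naive libraries share no numbers. With the replicate block the counts against naive cells were 5217 higher and 4653 lower, or 3053 and 2267 at 2-fold, those against YFPneg cells 2736 and 2438, and those of SGC0946 against SGC0649 1673 and 2164. Depth limits the genes at or near 0 in naive cells, whose folds are given as bounds or with counting intervals, and the 2 YFPneg SGC0649 libraries limit the comparison with YFPneg cells.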
